A study of Schizosaccharomyces pombe with 30 samples.

Results

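tlh1 and tlh2 are the telomere-linked helicase genes of fission yeast, one near the left end of chromosome I and one near the right end of chromosome II. H3K9me2 over both was followed in 300bp windows of a ChIP-seq experiment on 5 genotypes. Windows were taken if at least 150 of their bases lay in a gene: 39 of 1500 windows did, 19 in tlh1 and 20 in tlh2, with no reference to their values. The mutants were Δfkh2 (fkh2::natMX), Δprw1 (prw1::kanMX), clr6-1 and clr3-D232N (clr3-D232N:natMX), and they were set against wild-type. All strains, wild-type included, carried the MAT ΔREIII background, in which short deletions remove the Atf1/Pcr1 binding sites (s1 and s2) near the REIII silencer element of the mating type locus, the fluorescent reporters cenH::ade6p:SF-GFP and mat3m::ade6p:mKO2 and a 3xE2C:hygMX reporter at Locus2, and were grown in YES at 32°C. Δfkh2, Δprw1 and clr3-D232N had 3 libraries each (A, B and C), clr6-1 had 2 (A and B) and wild-type had 2 (B and C). Each genotype was 1 strain. clr6-1 is a hypomorphic allele of an essential gene, and clr3-D232N makes a catalytically dead protein.

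Methylation of histone H3 at lysine 9 is made by Clr4 and marks heterochromatin, which is started at nucleation sites and spreads from them. The tlh genes encode RecQ-type helicases and are silent in normal growing cells. Part of their sequence resembles the dg and dh repeats of the centromeres and cenH of the mating type locus, and the RNAi machinery acts through such repeats. Clr3 is the histone deacetylase of the SHREC complex, and Clr6 is a deacetylase of several complexes, of which Prw1 is a subunit. Fkh2 is a forkhead transcription factor, studied here as a partner of Clr6 complexes.

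The genes are near-copies. In the RefSeq sequence of ASM294v3, tlh1 spans chrI:1-5662 on the minus strand and is annotated up to the end of the chromosome, and tlh2 spans chrII:4526885-4532899 on the plus strand. Counted from the annotated start of each gene, they aligned without gaps over 5662 bases, the whole of tlh1, with 1 differing base, T303C (tlh2 base first, tlh1 base last), an identity of 99.98%. The last 353 bases of tlh2, chrII:4532547-4532899, had no counterpart in tlh1. The stretch around the differing base is shown because it is the one place where reads can tell the aligned parts apart, with that base in capitals.

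tlh1 (chrI:5330-5390, minus strand): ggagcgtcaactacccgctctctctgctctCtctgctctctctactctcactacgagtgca
tlh2 (chrII:4527157-4527217, plus strand): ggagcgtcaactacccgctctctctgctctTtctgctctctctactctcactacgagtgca

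Of the stretches of 34 bases in tlh1, 99.4% also stood in tlh2, and 93.5% of those in tlh2 also stood in tlh1. Only 0.604% of the stretches of tlh1 and 6.47% of those of tlh2 occurred in 1 place of the genome, and those of tlh2 lay mostly in its windows 19 and 20. The deposited counts came from an alignment for which no filter on mapping quality is stated, so the 2 genes were not separate measurements outside these windows. The reference holds these 2 copies of the full gene, and copies at chromosome ends that it does not hold were not analysed here. The shared block reached beyond the genes: chrI:1-12695 and chrII:4519864-4532546 were 99.819% identical over an alignment of 12696 positions, so most of the sequence within 7kb before the 2 gene starts was shared as well.

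The likeness to the centromeres lay in positions 1747 to 2224 of the genes, at 87.1% identity to centromere II and, from position 1953, at 91.0% to centromere I. A gap-free stretch of 93 bases is shown to let the likeness be seen. It matches 9 places in the 3 centromeres, all identical to each other. Capitals mark the 6 bases in which the centromeric copies differ from tlh2, and 87 bases are the same.

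tlh2 (chrII:4528837-4528929, plus strand): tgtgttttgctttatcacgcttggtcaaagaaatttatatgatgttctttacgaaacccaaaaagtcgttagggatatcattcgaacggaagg
centromere II (chrII:1610745-1610837, plus strand): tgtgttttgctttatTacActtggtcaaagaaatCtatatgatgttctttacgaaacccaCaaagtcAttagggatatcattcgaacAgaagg

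Library depth ranged from 4408669 to 12641248 fragments in 5kb bins, and 27.1% to 70.3% of these lay in the 300bp windows. This percentage differed within genotypes: it was 64.5% in Δprw1 B against 33.1% and 37.4% in the other Δprw1 libraries, 50.5% in Δfkh2 B against 30.8% and 36.9%, and 70.2% and 57.3% in wild-type B and C. Levels are normalized counts, that is, fragments per window divided by a size factor from the 5kb bins. The 39 windows together held 64037 to 401294 fragments per library, so counting error was small beside the differences between libraries.

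Both genes carried H3K9me2 in every genotype, and clr6-1 had the highest level while clr3-D232N had the lowest. In Δfkh2 A, B and C the windows of the 2 genes averaged 3078, 6614 and 3232 normalized counts. In Δprw1 A, B and C they averaged 3490, 13577 and 4748. In clr6-1 A and B they averaged 16488 and 17338. The 2 clr6-1 libraries lay close together and above all others, and Δprw1 B stood far above the other Δprw1 libraries. In clr3-D232N A, B and C the average was 2205, 2641 and 3072, and in wild-type B and C it was 11291 and 6068. All clr3-D232N libraries were below every other library, though clr3-D232N C and Δfkh2 A were almost equal. From high to low the means were 16913 ± 602 in clr6-1 (SD, n = 2), 7272 ± 5497 in Δprw1 (n = 3), 4308 ± 1998 in Δfkh2 (n = 3) and 2639 ± 434 in clr3-D232N (n = 3), against 8679 ± 3694 in wild-type (n = 2). Wild-type stood between clr6-1 and Δprw1, and wild-type, Δprw1 and Δfkh2 overlapped. Within every genotype, the library with the highest level was also the one with the highest percentage of fragments in windows. In clr6-1 this was B, with 70.3% against 68.4% in A. In clr3-D232N it was C, with 29.0% against 28.4% in A and 27.1% in B. The part that this percentage has in the levels was not tested.

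**Figure D1:**
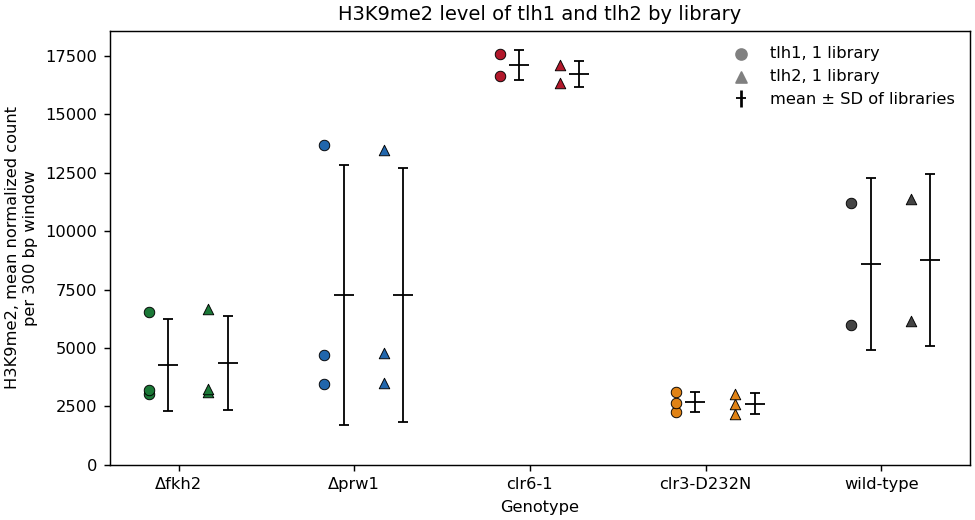
Mean normalized H3K9me2 count per 300bp window of tlh1 (circles) and tlh2 (triangles) in each library, by genotype, with the mean and SD of the libraries. The 2 genes give nearly the same value in each library, clr6-1 is highest, and Δprw1 B at about 13577 stands apart from the other Δprw1 libraries.

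Relative to wild-type, the summed level of both genes differed by -1.04 for Δfkh2, -0.44 for Δprw1, 1.03 for clr6-1 and -1.66 for clr3-D232N on the log2 scale. These correspond to 0.488, 0.735, 2.04 and 0.316 times wild-type. A 2-sided exact permutation test over libraries gave p = 0.3, 0.6, 0.33 and 0.1, and the smallest p the design allows is 0.1 for 3 libraries against 2 and 0.33 for 2 against 2. None of these 4 differences therefore passed 0.05, and over the 28 comparisons of levels and ratios in this family no adjusted p was below 0.215. Both clr6-1 libraries were above both wild-type libraries, and all 3 clr3-D232N libraries were below them. The directions in Δfkh2, Δprw1 and clr3-D232N rested on the scaling: with TMM on the windows themselves, which centres the windows on each other, the differences were 0.16, 1.07 and 0.15, and that of clr6-1 stayed positive. Without Δprw1 B, the difference in Δprw1 was -1.02.

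A measure that needs no scaling between libraries is the share of all window counts that fell in the 39 windows. It was 6.37%, 5.87% and 5.04% in Δfkh2 A, B and C. It was 6.51%, 6.89% and 7.35% in Δprw1 A, B and C, and 7.02% and 6.76% in clr6-1 A and B. It was 5.11%, 6.55% and 6.93% in clr3-D232N A, B and C, against 4.10% and 4.01% in wild-type B and C. Every mutant library thus had a larger share of its windowed H3K9me2 on tlh1 and tlh2 than either wild-type library. The share was not tested, and it also moves with the counts of all other windows.

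Each window was tested with edgeR's quasi-likelihood test, and was called where the p adjusted by Benjamini-Hochberg over all windows was under 0.005 and the log2 fold change exceeded 1 in size. In Δfkh2, 0 of the 39 windows were called, where 36.0% of all 1500 windows were called lower and 0.133% higher. In Δprw1, 0 were called, where 48.3% of all windows were called lower and 0.0667% higher. In clr6-1, 0 were called, where 36.4% of all windows were called lower and 0.400% higher. In these 3 mutants, 0 of the 39 had an unadjusted p below 0.05, and DESeq2 also called 0. Every library was above both wild-type libraries in 37 of the 39 windows in clr6-1, as in 30.7% of all windows. Every library was below both in 3 windows in Δfkh2 and 1 in Δprw1, as in 65.1% and 59.1% of all windows.

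In clr3-D232N, 3 of the 39 windows were called lower, or 7.69%, where 64.9% of all windows were called lower and 0.867% higher. All 39 were below both wild-type libraries in every clr3-D232N library, as were 75.3% of all windows. An unadjusted p below 0.05 was reached by 36. Every called window reaches it too, so at least 64.9% of all windows did. Over the 39 windows the log2 fold change had a median of -1.72, and over all windows -2.46. The called windows were tlh1 window 10, tlh2 window 9 and tlh2 window 20. The count of 3 depended on single libraries: it was 0 without wild-type B, where 39.7% of all windows were called lower, and 33 without Δprw1 B, where 69.3% were. It was 9 without Δfkh2 B (67.3% of all windows), 6 without Δprw1 A (65.6%) and 1 without any one of clr6-1 A, clr6-1 B, clr3-D232N A, clr3-D232N B or clr3-D232N C (51.9% to 63.0%). It was 8 with DESeq2 (66.1% of all windows), 36 with clr3-D232N and wild-type fitted alone (69.6%) and 0 with TMM on windows (31.2%).

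Set against the median of all windows, the median log2 fold change of the tlh windows was higher by 0.37 for Δfkh2, 1.34 for Δprw1, 0.99 for clr6-1 and 0.74 for clr3-D232N. With TMM on windows these offsets were 0.42, 1.19, 1.01 and 0.76. Since another scaling moves the fold changes of all windows by nearly the same amount, an offset of this kind is close to fixed under it, and its likeness between scalings is no sign of stability.

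**Figure D2:**
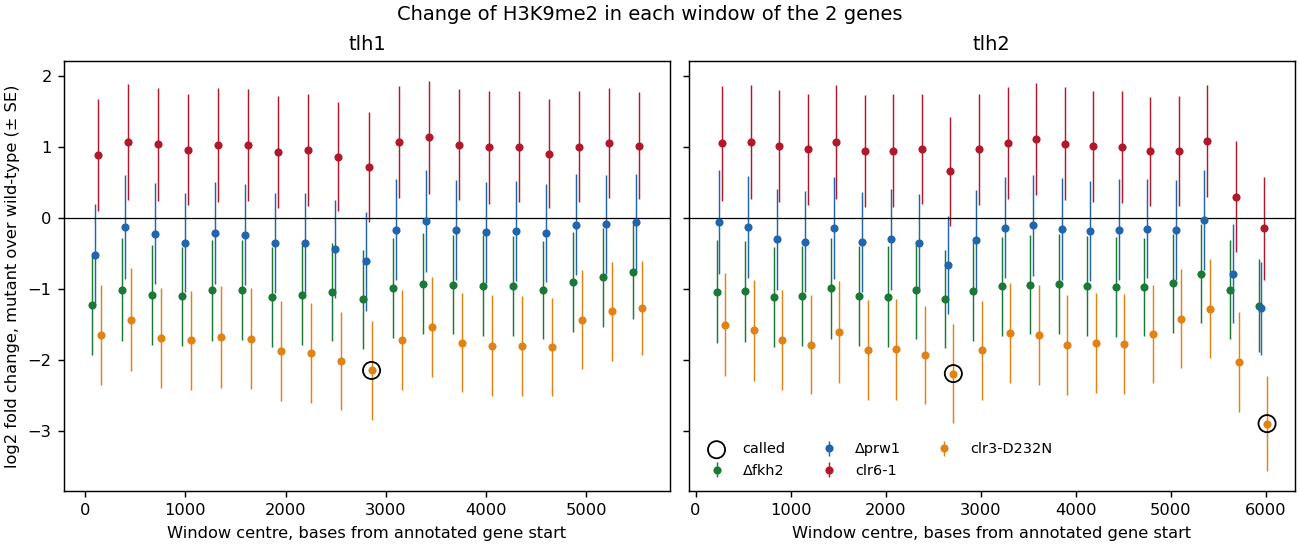
log2 fold change of each window, mutant over wild-type, with its standard error, against the window's distance from the annotated start of tlh1 (left) and tlh2 (right). Rings mark the 3 called windows, all in clr3-D232N, and window 20 of tlh2 is the lowest window in each mutant, with window 19 also below the windows before it in Δprw1 and clr6-1.

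Along the genes, counts varied far less than between libraries. Leaving out windows 19 and 20 of tlh2, the highest window held 1.95 to 2.49 times the count of the lowest within a library, with a coefficient of variation of 11.8% to 21.2%. Over the windows, the Pearson correlation of the log2 genotype mean with that of wild-type was 0.92 for Δfkh2, 0.83 for Δprw1, 0.95 for clr6-1 and 0.69 for clr3-D232N in tlh1 (19 windows). In tlh2 (20 windows) it was 0.88, 0.63, 0.62 and 0.61. These are descriptions, since neighbouring windows are not independent of each other and both genes share reads.

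**Figure D3:**
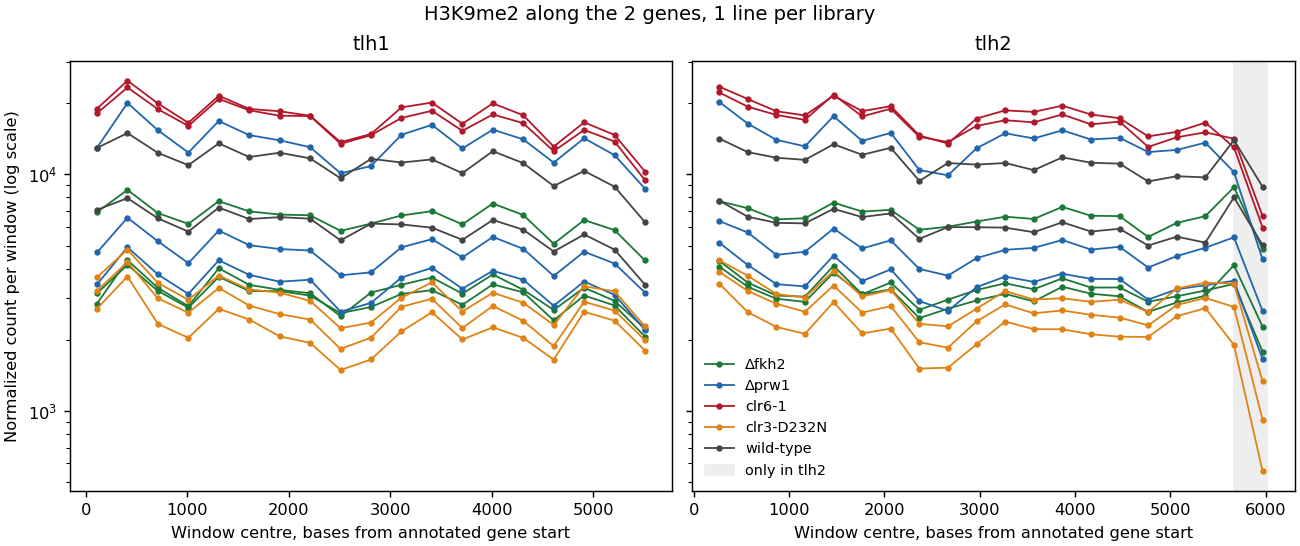
Normalized H3K9me2 count (log scale) of each window against the distance of its centre from the annotated gene start, 1 line per library, with the bases found only in tlh2 shaded. The lines run nearly parallel through the shared sequence, with the highest tlh1 window near the start, and fan apart in the last 2 windows of tlh2.

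Near the gene start, window 2 of tlh1 (chrI:5101-5400) was the highest of that gene in wild-type and held the differing base. It had 4146, 8602 and 4340 normalized counts in Δfkh2 A, B and C and 4923, 20055 and 6561 in Δprw1 A, B and C. It had 23325 and 24933 in clr6-1 A and B. It had 3700, 4257 and 4813 in clr3-D232N A, B and C, against 14958 and 7937 in wild-type B and C. The order of the genotypes here was that of the whole gene. Window 1 of tlh1 (chrI:5401-5700) had log2 fold changes of -1.22 ± 0.71 for Δfkh2, -0.51 ± 0.71 for Δprw1, 0.89 ± 0.79 for clr6-1 and -1.65 ± 0.71 for clr3-D232N (± SE). Window 1 of tlh2 (chrII:4527001-4527300), which begins further into the gene, had -1.03 ± 0.72, -0.05 ± 0.73, 1.06 ± 0.81 and -1.50 ± 0.72 in the same mutants.

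In the middle of the genes the values for clr3-D232N were lowest, apart from the end of tlh2. The median log2 fold change was -1.68, -1.83 and -1.61 over positions 1 to 2000, 2001 to 4000 and 4001 to 5662 of tlh1, and -1.66, -1.85 and -1.63 over those of tlh2. The called windows tlh1 window 10 (chrI:2701-3000) and tlh2 window 9 (chrII:4529401-4529700) cover overlapping gene positions and are not independent of each other. tlh1 window 10 had 1650, 2041 and 2364 normalized counts in clr3-D232N A, B and C, against 11642 and 6192 in wild-type B and C, a log2 fold change of -2.14 ± 0.70 (adjusted p = 0.0033, edgeR). tlh2 window 9 had 1523, 1850 and 2278 in clr3-D232N, against 11174 and 5986 in wild-type, a log2 fold change of -2.19 ± 0.69 (adjusted p = 0.0026, edgeR). At these windows the values of clr6-1 (0.73 and 0.67) and of Δprw1 (-0.61 and -0.66) were also the lowest of each gene, apart from windows 19 and 20 of tlh2.

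The same positions exist elsewhere as fragments. Positions 2511 to 3285 recur at chrI:17226-18007 (94.9% identity) and positions 4399 to 4935 at chrI:18008-18545 (98.3% identity), with further copies on both chromosome arms. In 8 windows at least 25% of the 34-base stretches occurred outside the 2 genes, and their median log2 fold change in clr3-D232N was -1.84, against -1.70 in the other 29 windows of the aligned part. In Δprw1 these medians were -0.26 and -0.18, in clr6-1 0.93 and 1.03, and in Δfkh2 -1.02 and -1.01. The part that shared reads have in these values was not tested. The fragment windows themselves differed from each other. The window chrI:18301-18600, in SPAC212.06C, annotated as DNA helicase-like, had log2 fold changes of -1.47 for Δfkh2, -0.99 for Δprw1, -0.06 for clr6-1 and -2.46 for clr3-D232N, while chrI:17401-17700 had -2.03, -4.66, -2.43 and -4.66.

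The end of tlh2 is the one longer stretch in which the genes could be told apart, and there the values changed. Window 19 (chrII:4532401-4532700) was the highest window of tlh2 in wild-type and contains 146 bases shared with tlh1. Window 20 (chrII:4532701-4533000) shares none and was the lowest of tlh2 in wild-type. Window 20 had 2272, 4837 and 1780 normalized counts in Δfkh2 A, B and C and 1656, 4372 and 2643 in Δprw1 A, B and C. It had 6672 and 5963 in clr6-1 A and B. It had 556, 919 and 1332 in clr3-D232N A, B and C, against 8873 and 5023 in wild-type B and C. Here, as in window 19, clr6-1 overlapped wild-type, unlike in the other 37 windows. In window 20, though not in window 19, Δprw1 B lay below wild-type C.

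In this window the log2 fold change was the lowest of all 39 in each mutant: -1.23 ± 0.65 for Δfkh2 (edgeR adjusted p = 0.090), -1.27 ± 0.65 for Δprw1 (0.081), -0.14 ± 0.73 for clr6-1 (0.91) and -2.89 ± 0.67 for clr3-D232N (4.0e-05). Only the last was called. Set against the mean of the 18 windows before windows 19 and 20 within the same library, window 20 was at -0.45, -0.46 and -0.90 on the log2 scale in Δfkh2 A, B and C and at -1.12, -1.70 and -0.88 in Δprw1 A, B and C. It was at -1.35 and -1.59 in clr6-1 A and B and at -2.03, -1.56 and -1.23 in clr3-D232N A, B and C, against -0.36 and -0.28 in wild-type B and C. Every mutant library was below both wild-type libraries in this ratio, by the least in Δfkh2 A and B. These ratios set sequence absent from tlh1 against sequence shared with it. They were formed after the values were seen and were not tested.

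At the other extreme, the highest log2 fold changes were those of tlh1 window 19 (chrI:1-300) in Δfkh2 (-0.76 ± 0.67) and clr3-D232N (-1.26 ± 0.67), tlh2 window 18 (chrII:4532101-4532400) in Δprw1 (-0.02 ± 0.71) and tlh1 window 12 (chrI:2101-2400) in clr6-1 (1.14 ± 0.80). tlh1 window 19 is the end of the chromosome in the assembly and the lowest window of tlh1 in wild-type. It had 2060, 4326 and 2229 normalized counts in Δfkh2 A, B and C and 1799, 1989 and 2275 in clr3-D232N A, B and C, against 6280 and 3417 in wild-type B and C. The Δfkh2 libraries overlapped wild-type in this window and the clr3-D232N libraries did not.

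The mean count per window of tlh2 was close to that of tlh1 in every library. The log2 ratio, tlh2 over tlh1, averaged 0.02 ± 0.01 for Δfkh2, 0.01 ± 0.02 for Δprw1, -0.03 ± 0.01 for clr6-1 and -0.03 ± 0.01 for clr3-D232N, against 0.03 ± 0.01 in wild-type (SD). The differences from wild-type were -0.01, -0.02, -0.06 and -0.06, with p = 0.6, 0.3, 0.33 and 0.1 (2-sided exact permutation test, smallest p 0.1 or 0.33). The ratio in clr3-D232N and clr6-1 was below both wild-type libraries in each library, at 0.958 times wild-type in both mutants. With the 18 windows of each gene that have an aligned partner, the differences in Δprw1 and clr6-1 were 0.01 and 6.5e-05, and those in Δfkh2 and clr3-D232N stayed negative. With medians in place of means the 4 differences were 0.03, 0.05, 0.02 and 0.02. The signs of these small differences thus depended on which windows and which average were taken.

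Compared base for base, 18 windows of tlh2 were set against the tlh1 windows over the same gene positions, weighted by overlap. The median ratio was 0.977 to 1.02 by library, and single windows ranged from 0.872 to 1.34 over all libraries. By the median window the genes thus gave nearly equal counts for equal sequence in all 13 libraries. An exception was tlh2 window 18, the last of the 18, with a ratio of 1.26 to 1.34 in every library (mean 1.30). The cause of this excess was not tested. Equal H3K9me2 on both genes cannot be told apart from an even placement of identical reads.

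In the mutants, but not in wild-type, the counts of the genes differed more from those of the windows before them than from each other. The likeness of the 2 genes cannot be told apart from an even placement of identical reads. Within 5kb before the gene start, toward the centromere, 17 windows lay beside each gene. The log2 ratio of the mean count per window of tlh1 to that of its flank was 0.44 ± 0.14 for Δfkh2, 1.20 ± 0.16 for Δprw1, 0.20 ± 0.01 for clr6-1 and 0.52 ± 0.04 for clr3-D232N, against 0.00 ± 0.03 in wild-type (SD). For tlh2 it was 0.41 ± 0.13, 1.17 ± 0.13, 0.14 ± 0.01 and 0.48 ± 0.07 in these mutants, against -0.01 ± 0.02 in wild-type. In wild-type the genes were therefore no higher than their flanks, and in every mutant library both genes were higher than theirs. The differences from wild-type were 0.43, 1.20, 0.20 and 0.52 for tlh1 and 0.42, 1.18, 0.14 and 0.49 for tlh2. Each had the smallest p its design allows (0.1 for Δfkh2, Δprw1 and clr3-D232N and 0.33 for clr6-1, 2-sided exact permutation test), so none could pass 0.05. Since both flanks lie in the shared block, the 2 genes are again not independent here.

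**Figure D4:**
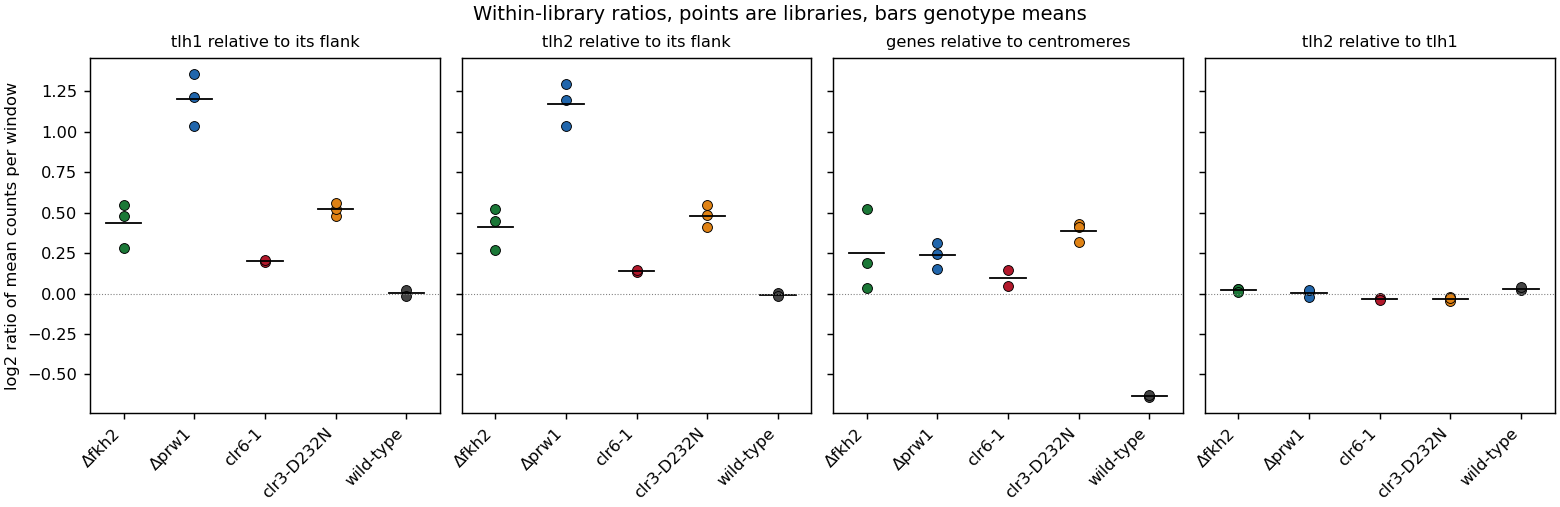
Within-library log2 ratios of mean counts per window: tlh1 and tlh2 over their 5kb flanks, both genes over the annotated centromeres, and tlh2 over tlh1. Points are libraries and bars genotype means. Every mutant library lies above both wild-type libraries in the first 3 ratios, and Δprw1 is highest over the flanks.

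The fall beside the genes was steepest in Δprw1 and clr3-D232N, and in both it was largest beyond 2.5kb. Within 2.5kb before tlh1 the clr3-D232N median was still close to that over the genes, -1.72. Within 2.5kb before tlh1 the windows had a median log2 fold change of -1.34 for Δfkh2, -0.98 for Δprw1, 0.78 for clr6-1 and -1.79 for clr3-D232N (8 windows). From 2.5 to 5kb it was -1.45, -2.57, 0.81 and -3.11 (9 windows), and from 5 to 10kb it was -1.98, -5.45, -1.43 and -5.26 (15 windows). The clr6-1 median thus stayed above wild-type up to 5kb and fell below it farther out. In clr6-1, 0 windows were called higher in these bands, where 0.400% of all windows were. In the band from 5 to 10kb, 9, 15, 5 and 15 of the 15 windows were called lower in the same mutants. Over all windows 36.0%, 48.3%, 36.4% and 64.9% were. Before tlh2 the medians from 5 to 10kb were -1.90, -4.91, -1.72 and -4.75 (16 windows).

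Toward the telomere, past the end of tlh2, the first 2.5kb differed from the side of the centromere mainly in Δfkh2. In the first 2.5kb the median was -0.30 for Δfkh2, -1.04 for Δprw1, 0.39 for clr6-1 and -2.15 for clr3-D232N (8 windows), with 0, 2, 0 and 4 windows called lower. From there to the chromosome end it was -0.29, -1.62, -0.63 and -2.73 (13 windows), with 0, 5, 0 and 11 called lower. Over all 1500 windows, 36.0%, 48.3%, 36.4% and 64.9% were called lower. Within 2.5kb before tlh2 the medians were -1.38, -1.14, 0.81 and -1.94 (8 windows), with 0, 0, 0 and 4 called lower. Δfkh2 was thus nearer to wild-type past tlh2 than on the side of the centromere. Within 2.5kb, Δprw1 and clr3-D232N had similar medians on both sides. For tlh1 the assembly ends within the gene, so the side toward the telomere was not measured.

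**Figure D5:**
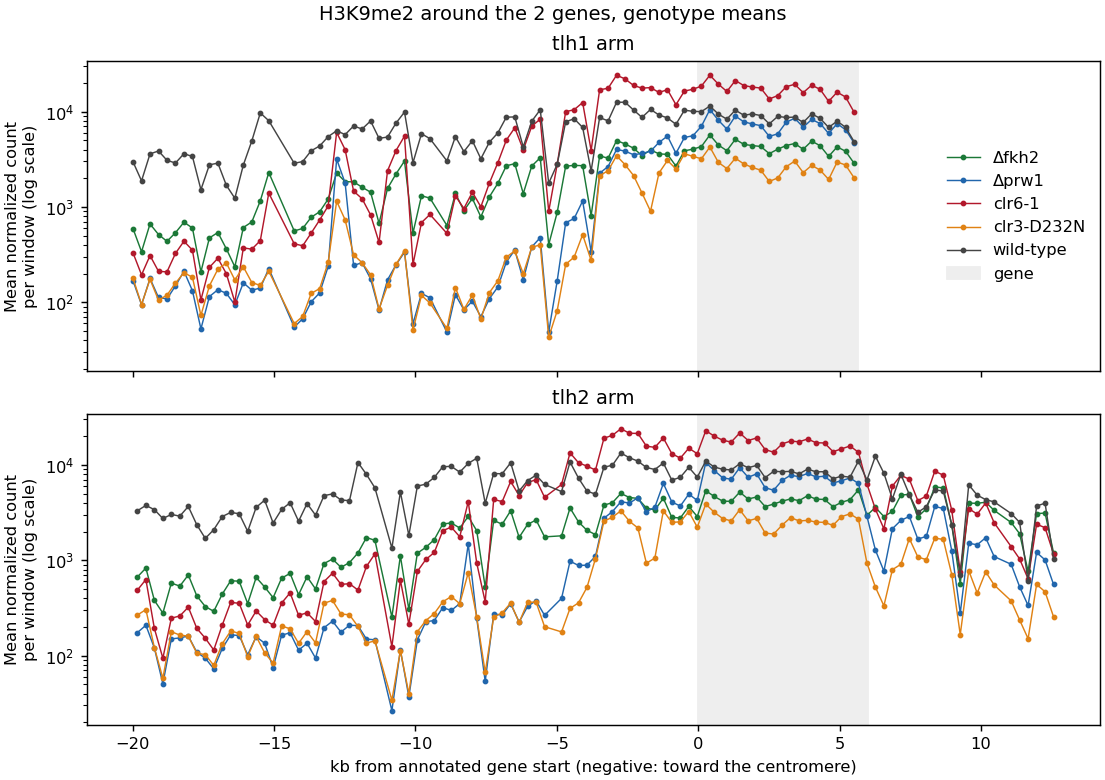
Genotype mean of the normalized H3K9me2 count per window (log scale) against the distance from the annotated start of tlh1 (top) and tlh2 (bottom), negative toward the centromere, with the gene shaded. Wild-type falls less than the mutants over the side toward the centromere, while Δprw1 and clr3-D232N fall sharply between 2.5 and 5kb before both genes. Inside the genes both mutants are higher than in that stretch, and clr3-D232N lies below wild-type.

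Annotated genes within 20kb were counted by place. On chromosome I, 18 of 19 such genes had windows, 38 windows in all, of which 20 were called lower for Δfkh2, 27 for Δprw1, 20 for clr6-1 and 34 for clr3-D232N. Over all 1500 windows the shares called lower were 36.0%, 48.3%, 36.4% and 64.9% in these mutants. On the centromeric side of tlh2, 15 of 16 genes had windows, 30 in all, with 17, 21, 15 and 24 called lower. On the telomeric side of tlh2, 10 of 11 genes had windows, 12 in all, with 0, 4, 0 and 10 called lower, which for Δfkh2, Δprw1 and clr6-1 is a smaller share than over all windows. No window of these genes was called higher in any mutant, where 0.133%, 0.0667%, 0.400% and 0.867% of all windows were. The pseudogene SPAC212.10, the neighbour of tlh1, had 2 windows with medians of -1.37, -0.90, 0.72 and -1.54, whereas SPAC212.08C, coding for a GPI-anchored protein, had 2 windows with -1.73, -5.21, -0.92 and -5.02.

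The 5kb bins gave levels relative to the bulk of the genome. The bin chrI:1-5000, all of it tlh1, held 28.1, 60.6 and 29.9 times the median bin in Δfkh2 A, B and C and 32.2, 126 and 43.5 times in Δprw1 A, B and C. It held 153 and 162 times in clr6-1 A and B. It held 20.2, 24.0 and 28.0 times in clr3-D232N A, B and C, against 103 and 55.1 times in wild-type B and C. Even in clr3-D232N the gene thus stood at least 20 times above the median bin. The next bin but one, chrI:10001-15000, held 1.68, 1.66 and 1.68 times the median in clr3-D232N and 1.5, 3.14 and 1.75 times in Δprw1, against 66.3 and 37.7 times in wild-type. None of the bins chrI:1-5000, chrII:4525001-4530000 and chrII:4530001-4535000 was called in any mutant, where 2.34% of all 2520 bins were called lower for Δfkh2, 4.17% for Δprw1, 3.65% for clr6-1 and 3.89% for clr3-D232N, and 0.159%, 0%, 0.238% and 0.159% higher. The log2 fold changes of chrI:1-5000 were -0.99 ± 0.62, -0.23 ± 0.63, 0.99 ± 0.70 and -1.71 ± 0.63 in the 4 mutants.

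Against the centromeres, taken as the 407 windows within the span of the annotated centromeric lncRNAs, the mutants also differed from wild-type in 1 direction. The log2 ratio of the genes to these windows was 0.52, 0.03 and 0.19 in Δfkh2 A, B and C and 0.31, 0.15 and 0.25 in Δprw1 A, B and C. It was 0.14 and 0.04 in clr6-1 A and B and 0.32, 0.43 and 0.41 in clr3-D232N A, B and C, against -0.64 and -0.63 in wild-type B and C. In all mutant libraries the genes were higher than the mean centromeric window and in wild-type they were lower. The differences were 0.88, 0.87, 0.73 and 1.02, with p = 0.1, 0.1, 0.33 and 0.1 (2-sided exact permutation test, the smallest p possible). With the 98 centromeric windows in the genes' range of wild-type counts, all 4 differences stayed positive. These windows were picked by wild-type counts that also enter the ratio, so this adds no separate support.

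Mutants were also set against each other at the 39 windows, in fits that share libraries with those above. clr6-1 was higher than clr3-D232N in all 39 windows by the edgeR test, where 41.2% of all windows were called higher and 5.67% lower. Both clr6-1 libraries exceeded all 3 clr3-D232N libraries in all 39, as in 69.7% of all windows. The median log2 fold change was 2.73 over the 39 windows, range 2.29 to 2.91, and 1.10 over all windows. In 5 of the fits that left out 1 library of these genotypes, fewer passed: 24 without clr6-1 A, 7 without clr6-1 B, 6 without clr3-D232N A, 8 without clr3-D232N B and 29 without clr3-D232N C, where 29.1% to 36.3% of all windows were called higher. With TMM on windows 18 passed, where 30.4% of all windows were called higher and 37.3% lower, and the median was 1.01.

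clr6-1 was above Δfkh2 by a median log2 fold change of 2.0. Of the 39 windows, 0 were called by edgeR, where 0.200% of all windows were called higher and 0.200% lower, and 0 by DESeq2. Every clr6-1 library exceeded every Δfkh2 library in all 39 windows, as in 51.1% of all windows. Without Δfkh2 B 32 were called higher, where 31.7% of all windows were, and without Δprw1 B 37, where 25.9% were. With TMM on windows 14 were called higher, where 17.0% of all windows were called higher and 37.7% lower. clr6-1 was above Δprw1 by a median of 1.20, or 0.05 with TMM on windows, with 0 windows called by edgeR, where 10.7% of all windows were called higher and 0% lower, 0 by DESeq2 and 1 at an unadjusted p below 0.05. Without Δprw1 B, 36 windows were called higher, where 41.8% of all windows were. Both clr6-1 libraries exceeded all Δprw1 libraries in all 39, as in 63.5% of all windows.

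Against clr3-D232N, Δprw1 had a median log2 fold change of 1.49 and Δfkh2 of 0.71, which with TMM on windows were 0.92 and -0.02. In Δprw1 0 windows were called by edgeR, where 3.33% of all windows were called higher and 7.00% lower, and 0 by DESeq2. In Δfkh2 0 were called by edgeR, where 25.4% of all windows were called higher and 4.13% lower, 0 by DESeq2 and 1 at an unadjusted p below 0.05, and 1 was called without Δprw1 B, where 27.9% of all windows were called higher. All Δprw1 libraries exceeded all clr3-D232N libraries in 34 of the 39 windows, as in 26.5% of all windows, and all Δfkh2 libraries did so in 19, as in 41.1%. Δprw1 against Δfkh2 had a median of 0.77 with 0 windows called by edgeR or DESeq2 and 0 at an unadjusted p below 0.05, where 0% of all windows were called higher and 20.3% lower.

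The annotated genes whose summed level was most like that of tlh1 and tlh2 over the 13 libraries were sought among 205 genes with at least 3 windows. The first 3 share windows with the genes: SPNCRNA.2000, an lncRNA opposite tlh1, with a Pearson r of 0.998, SPNCRNA.6651, opposite tlh2, with 0.997, and SPNCRNA.6646, across the start of tlh2, with 0.989. The next were SPNCRNA.5273 (0.977) and SPNCRNA.5276 (0.975), 2 centromeric lncRNAs of chromosome II that share no windows with the genes. SPNCRNA.5273 does share sequence with them: it spans a centromeric stretch, chrII:1636860-1637357, with 87.4% identity to tlh1 and tlh2. The r values follow differences between libraries in enrichment as well as between genotypes, and have no test.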

How the data were processed

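ChIP-seq for H3K9me2 gave 13 libraries of 5 genotypes in the deposited tables. The 15 input libraries and 2 H3K9me2 libraries, 1 of wild-type and 1 of clr6-1 that the study set aside, were not analysed here. The authors deposited raw fragment counts, not normalized, in 1500 filtered windows of 300bp and 2520 bins of 5kb. Their processing notes name Trimmomatic 0.39, Bowtie2 2.4.2, Picard 2.25.2, SAMtools 1.12 and ASM294v2, whose chromosome lengths equal those of ASM294v3, used here for sequence and annotation. Totals were 4408669 to 12641248 fragments per library. Replicates are called biological in the methods.

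Counts were scaled by DESeq2 (1.42.0) size factors from the 5kb bins and tested in R 4.3.3 with edgeR (4.0.16) by its quasi-likelihood F test, all genotypes in one fit. Tests were run on simulated counts first. Levels and ratios were compared by 2-sided exact permutation. Homology was found with BLAST 2.17.0. Windows named are the first, last, highest and lowest of each gene in wild-type and those of extreme fold change in each mutant. tlh1 window 10, tlh2 window 9, the fragment windows, SPAC212.10 and SPAC212.08C were named after their values were seen. The genes, lists, tests and alternatives were chosen with earlier results of these data known. Alternatives were another test, other size factors, other fits, thresholds, filters and window rules, and each library left out.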

Additional observations from a re-analysis of the deposited data

How the results depend on the processing

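Calls at the 39 windows moved with the scaling, the fit and single libraries. With TMM on windows, 23 were called higher in Δprw1 (20.8% of all windows) and 16 in clr6-1 (9.47%) against wild-type. This scaling called 0 lower in clr3-D232N against wild-type (31.2% of all windows). Between mutants, 18 were called higher in clr6-1 against clr3-D232N (30.4% of all windows) and 14 in clr6-1 against Δfkh2 (17.0%). In Δprw1, 3 were called higher against clr3-D232N (17.0% of all windows) and 4 against Δfkh2 (12.6%). With the total count of 5kb bins, 1 was lower in clr3-D232N against wild-type (53.1% of all windows) and 1 higher in Δfkh2 against clr3-D232N (25.9%). The last 2 scalings of mutants against each other, and TMM on windows for levels, were chosen after seeing the data. In clr3-D232N against wild-type, 8 windows were called lower with DESeq2 (66.1% of all windows) and 36 with only these genotypes in the fit (69.6%). At an adjusted p below 0.05, 32 were called lower (70.7% of all windows). With each library left out, the calls were 0 to 33 in clr3-D232N against wild-type, 6 to 39 in clr6-1 against clr3-D232N, 0 to 1 in Δfkh2 against clr3-D232N, 0 to 37 in clr6-1 against Δfkh2 and 0 to 36 in clr6-1 against Δprw1. Over all windows, TMM on windows called 236 lower and 252 higher for Δfkh2 (540 and 2 as reported), 405 and 312 for Δprw1 (725 and 1) and 468 and 386 for clr3-D232N (973 and 13) against wild-type, and 142 higher for clr6-1 (6). In a fit of these 2 genotypes alone 58 were lower for Δfkh2, and at an adjusted p below 0.05 851 were. The cause was not tested.

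Levels changed direction as follows. With the total count of 5kb bins, Δprw1 against wild-type gave 0.22 for tlh1, 0.20 for tlh2 and 0.21 for both. With TMM on windows, tlh1, tlh2 and both gave 0.17, 0.16 and 0.16 for Δfkh2, 1.08, 1.06 and 1.07 for Δprw1 and 0.18, 0.12 and 0.15 for clr3-D232N. With each library left out, Δprw1 ranged from -1.02 to 0.0205 for tlh1 and from -1.02 to 0.0035 for both, the positive values without wild-type B. The ratio of tlh2 to tlh1 in Δfkh2 ranged from -0.0158 to 0.0018. It turned to 0.0112 in Δprw1 and 6.5e-05 in clr6-1 with aligned partners only, to 0.0658 in Δprw1 with only the aligned pair of lower identity, and with medians to 0.0293 for Δfkh2, 0.0505 for Δprw1, 0.0173 for clr6-1 and 0.0216 for clr3-D232N. Ratios to flanks and centromeres kept their direction in every alternative run. Of single windows against wild-type, tlh1 window 19 turned to 0.0624 (total count) and 0.43 (TMM on windows) in Δfkh2 and 0.64 (TMM on windows) in clr3-D232N. tlh2 window 20 turned to 0.20 in Δprw1 and 0.0427 in clr6-1 with TMM on windows, and tlh2 window 18 in Δprw1 to 0.50 (total count) and 1.33 (TMM on windows). With each library left out, window 18 ranged from -0.84 to 0.51 and window 20 in clr6-1 from -0.49 to 0.33.

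No label says that a replicate letter marks a shared batch, and the letters were not taken to pair the libraries. The B library had the highest level of the genes in Δfkh2, Δprw1, clr6-1 and wild-type, and the C library in clr3-D232N. Of 22 pairs of the same letter in different genotypes, 12 had deviations correlated above 0.1, with a median of 0.10, against 18 of 45 pairs of different letters, with a median of -0.10. Deviations within a genotype are tied to each other: wild-type B gave 0.23 with clr6-1 A and -0.23 with clr6-1 B. These correlations therefore cannot decide whether a letter pairs libraries. With the letter as a replicate block, 35 windows were called higher in clr6-1 against Δfkh2 (26.0% of all windows, against 0.200% as reported). The same fit called 4 lower in clr3-D232N against wild-type (64.5% of all windows) and 39 higher in clr6-1 against clr3-D232N (42.3%). The block put tlh2 window 18 in Δprw1 at 0.0344 and tlh2 window 20 in clr6-1 at 0.17.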
